A study of Mus musculus with 14 samples.

Results

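The ERK pathway output genes are feedback regulators and transcriptional targets of Ras-ERK signaling. 10 genes were named by symbol (Dusp4, Dusp5, Dusp6, Spry1, Spry2, Spry4, Etv4, Etv5, Fosl1 and Phlda1), and 9 of them have a row among the 56414 genes of the expression table, as no row carries the symbol Dusp5. They were followed by RNA-seq of 14 whole tumors of C57Bl/6 mice, with 1 library per tumor. M/D-driven mammary tumors arose in female mice that received a slow-release pellet of medroxyprogesterone acetate (MPA, a synthetic progestin) at 6 to 9 weeks of age, followed by 6 oral gavages of the carcinogen 7,12-dimethylbenz[a]anthracene (DMBA). 4 of these tumors were untreated and 4 came from mice that drank water with 0.5% nicotinamide (NAM, a form of vitamin B3) for 10 days. AT3 tumors grew from cells of the AT3 mouse mammary carcinoma line placed under the skin, and 3 were untreated while 3 came from mice given NAM in the same way. The age of the AT3 hosts is not stated in the labels. Mice of both models were assigned to treatment at random once the tumor measured 0.25 cm2, so every M/D-driven tumor, untreated or not, had been exposed to MPA and DMBA. M/D-driven tumors arise anew in each mouse, whereas all AT3 tumors derive from 1 cell line.

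ERK is the last kinase of a cascade that runs from growth factor receptors through Ras, RAF and MEK. Active ERK switches on a small set of genes, and several of their products act back on the cascade: DUSP phosphatases remove the activating phosphates from ERK, and Sprouty proteins restrain signaling between the receptor and Ras. ETS factors of the PEA3 group and the AP-1 subunit FRA-1 carry the signal on to other genes, and in mammary epithelium growth factor receptors of the EGF and FGF families feed this pathway.

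The libraries held between 40936868 and 84178009 reads on the counted regions of genes. Values are normalized counts, which the authors scaled apart in each model, so that levels of M/D-driven and AT3 tumors were compared on a common scale only. NAM-treated M/D-driven tumor 1 stood apart: it is the single library of experiment 2, all 10 epithelial markers were at their lowest of the 8 M/D-driven tumors in it (summed level of 8939.9, against 286530 to 1049250 in the other 7), and 8 markers of B cell precursors summed to 241907 against 1134 to 1632, with Vpreb1 at 67823 and Pax5 at 19417. Of these 8 markers, 7 were at their highest of the 8 M/D-driven tumors in that tumor and 1 was at its lowest. NAM-treated M/D-driven tumor 4 held the highest level of all 6 skeletal muscle markers (summed level of 258744, against 137 to 81958 in the other 7). Markers of the epithelium were detected in all tumors, Epcam at 16166 to 62247 in the M/D-driven tumors other than NAM-treated tumor 1 and at 18832 to 27578 in AT3 tumors. As the tumors were sequenced whole, fewer cells of a type and less RNA per cell cannot be told apart. Among the marker lists, none of 10 epithelial, 8 fibroblast and 8 leukocyte markers was called between NAM-treated and untreated M/D-driven tumors. Called higher were 1 of 6 adipocyte markers (Adipoq) and 1 of 6 skeletal muscle markers, against 3.03% of all genes. The median log2 difference was -1.33 for the epithelial markers, of which 0 were above 0. It was 3.82 for the muscle markers and 0.01 for all genes. In AT3 tumors 2 of 8 fibroblast markers were higher, 2 of 8 leukocyte markers higher and 1 lower, and 1 of 6 adipocyte markers lower. Among all genes tested in AT3 tumors, 12.2% were called higher and 10.9% lower, so these small counts are not read as a change in cell types. Of the 10 epithelial markers, 1 was higher (Cdh1, log2 difference 0.90) and 3 were lower (Krt19, -1.24, Krt7, -0.92, and Krt14, -0.79) with NAM in AT3 tumors, with a median of -0.62. Nothing in the labels states that every tumor of a group came from a separate mouse, so p-values measure only the spread between these tumors, which need not be a spread between mice.

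In M/D-driven tumors, no ERK output gene passed the thresholds between NAM-treated and untreated tumors (a fold of 1.5 or more with an unadjusted p up to 0.05). Among all 21700 genes tested, 3.03% were called higher and 3.19% lower, and 0.00461% passed an adjusted p of 0.05 (limma with Benjamini-Hochberg adjustment). On recovered reads, edgeR called 0 of the 9 genes and DESeq2 called 1 (Spry4). In none of the 9 genes were the groups free of overlap, which was the case for 2.43% of all genes in the higher and for 2% in the lower direction. The median log2 difference of the 9 genes was -0.32, against 0.01 for all genes tested, but its sign turned with the method and the tumors used, to 0.32 by edgeR (0.05 for all genes), 0.36 by DESeq2 (0.08) and 0.14 without treated tumor 4 (0.02). Within experiment 1, that is without treated tumor 1, 0 of 9 genes were called in either direction and the median was -0.09. The treated tumors spread more widely than the untreated ones, as the plot of values by tumor shows.

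**Figure D1:**
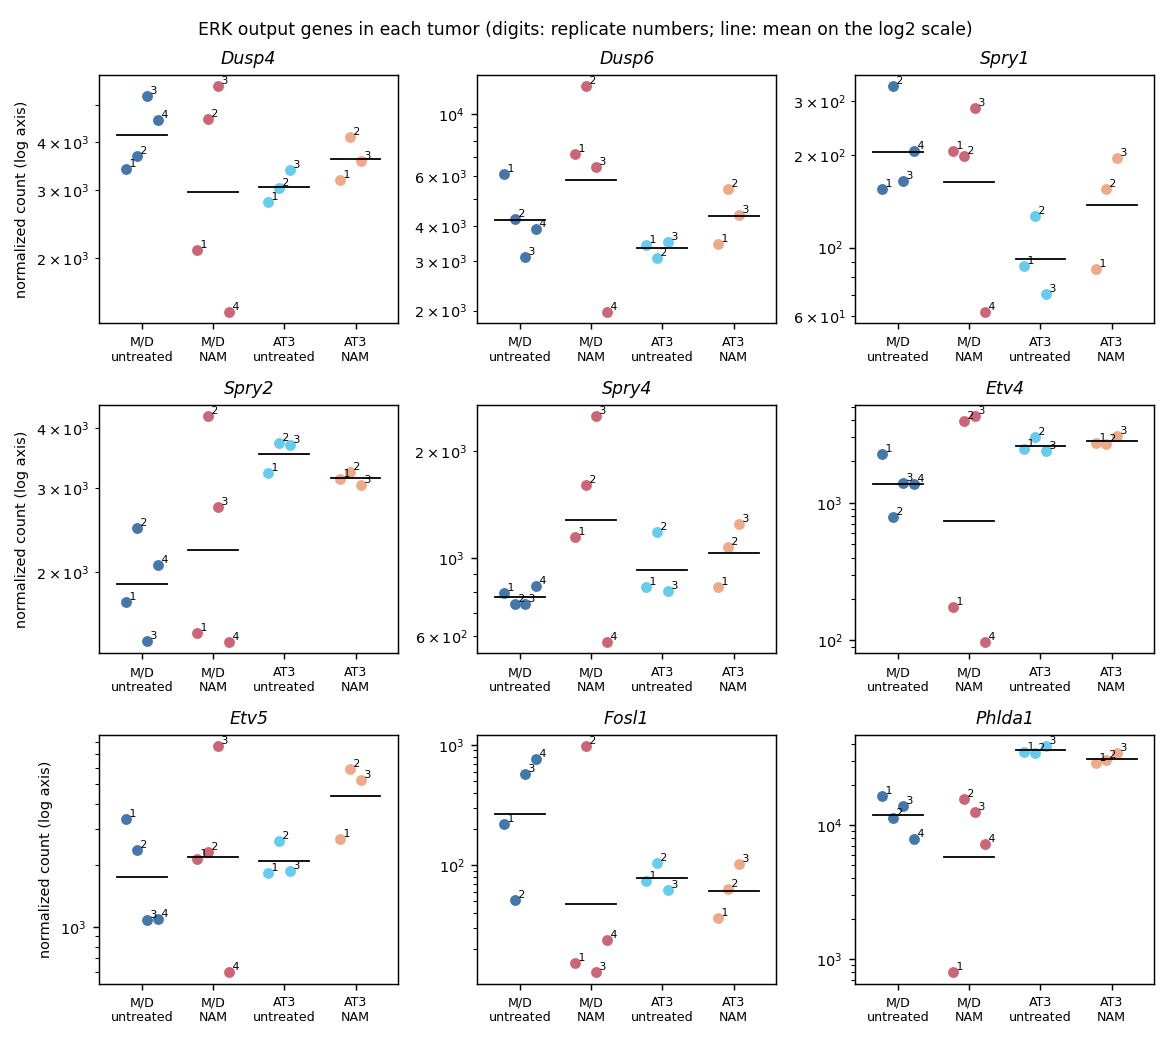
Normalized counts of the 9 ERK output genes (log axis) in each of the 14 tumors, with 1 panel per gene, digits giving the replicate number and lines the mean on the log2 scale. The 4 untreated M/D-driven tumors lie close together for Spry4 (739 to 830.5), whereas the 4 NAM-treated ones range from 578 to 2515.

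Dusp4 (chr8:34807295-34819894, mm10) encodes a nuclear phosphatase of ERK and other MAP kinases. It measured 3410.1, 3676, 5275 and 4568 normalized counts in the untreated M/D-driven tumors 1 to 4, and 2104, 4609, 5604 and 1451 in the NAM-treated tumors 1 to 4. Treated tumors 1 and 4 lay below, and treated tumor 3 above, every untreated tumor. The log2 difference was -0.48 (SE 0.43, 95% interval -1.47 to 0.50, adjusted p = 0.81 by limma).

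Dusp6 (chr10:99263228-99267488) encodes a cytoplasmic phosphatase with a strong preference for ERK. Its level was 6126, 4233, 3098 and 3899.8 normalized counts in untreated tumors and 7197, 12576, 6489 and 1977 in NAM-treated tumors. Treated tumors 1 to 3 exceeded all untreated tumors, whereas treated tumor 4 was the lowest of the 8. On the log2 scale the groups differed by 0.47 (SE 0.52, adjusted p = 0.85 by limma), and without treated tumor 4 it was 0.99 (SE 0.32, unadjusted p = 0.016, adjusted p = 0.72 by limma), past the thresholds for p and fold.

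Dusp5 encodes a nuclear phosphatase of ERK. A locus with no symbol (GSMG0051616, chr19:53529318-53541322) overlaps 94.8% of the RefSeq position of Dusp5 (chr19:53529145-53541809), and it is described here by that position without being counted among the 9 genes. Its normalized count was 871, 696, 1239.8 and 2535 in untreated M/D-driven tumors and 1447, 1573, 424 and 590.4 in NAM-treated ones. The difference on the log2 scale was -0.43 (SE 0.55, adjusted p = 0.87 by limma) and the groups overlapped. The promoter of Dusp5 (RefSeq, GRCm38.p6, from 250 bases before to 50 bases after the start site, plus strand, chr19:53528895-53529194) is shown for its pair of adjoining CArG boxes, in capitals, at bases 169 to 178 and 179 to 188 of the window. The CArG box is the recognition site of the serum response factor, a partner of ERK-activated ETS proteins.
Dusp5: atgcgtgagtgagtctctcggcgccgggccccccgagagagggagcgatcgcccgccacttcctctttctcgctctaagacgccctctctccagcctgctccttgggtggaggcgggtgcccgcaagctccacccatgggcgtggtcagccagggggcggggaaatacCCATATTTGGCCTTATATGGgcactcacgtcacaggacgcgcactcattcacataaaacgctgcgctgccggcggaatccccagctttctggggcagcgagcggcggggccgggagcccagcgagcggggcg
A CArG box was found in 1.6% of the 32851 mouse promoters of the same length. The AP-1 motif TGANTCA (7.8% of promoters), the CRE motif TGACGTCA (1.8%) and the ETS motif CCGGAA (14.9%), all searched on both strands, were not found in this window.

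Among the Sprouty genes, Spry1 (chr3:37639947-37644599) measured 155, 336, 164 and 206 normalized counts in untreated M/D-driven tumors and 206, 198, 284 and 61.8 in NAM-treated ones. Treated tumor 4 was the lowest of the 8, and the other 3 treated tumors lay within the untreated range. The log2 difference was -0.32 (SE 0.51, adjusted p = 0.90 by limma).

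Spry2 (chr14:105891949-105896821), which encodes another of these receptor-to-Ras inhibitors, measured 1729, 2476, 1438 and 2069.8 normalized counts in untreated M/D-driven tumors and 1494, 4238, 2734 and 1429 in NAM-treated ones. Treated tumors 2 and 3 exceeded all untreated tumors, and treated tumor 4 was just below the lowest of them. On the log2 scale the groups differed by 0.24 (SE 0.38, adjusted p = 0.90 by limma). The promoter of Spry2 (RefSeq, GRCm38.p6, minus strand, chr14:105896770-105897069) is shown because Spry2 was lower in untreated M/D-driven than in untreated AT3 tumors, as given further on, and because it holds an ETS motif CCGGAA, in capitals, at bases 284 to 289 of the window, after the start site.
Spry2: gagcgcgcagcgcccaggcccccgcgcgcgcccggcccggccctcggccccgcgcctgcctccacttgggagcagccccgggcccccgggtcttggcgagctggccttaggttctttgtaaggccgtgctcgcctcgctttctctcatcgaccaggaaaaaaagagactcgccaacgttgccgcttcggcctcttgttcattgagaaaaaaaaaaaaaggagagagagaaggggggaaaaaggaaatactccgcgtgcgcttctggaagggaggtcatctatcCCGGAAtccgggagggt
The windows of Dusp6 and Spry1, and both windows of Etv5, held none of the 4 motifs, which says only that these letters are not there.

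Spry4 (chr18:38586272-38601419) was the tightest member in untreated M/D-driven tumors, at 797, 739, 741 and 830.5 normalized counts. NAM-treated tumors 1 to 4 measured 1143, 1607, 2515 and 578. Treated tumors 1 to 3 lay above all untreated tumors and treated tumor 4 below all of them. The difference on the log2 scale was 0.72 (SE 0.41, 95% interval -0.22 to 1.66, adjusted p = 0.74 by limma). It was 1.10 without treated tumor 4 (SE 0.29, unadjusted p = 0.0060, adjusted p = 0.72 by limma) and 0.91 by DESeq2 on recovered reads (unadjusted p = 0.040, adjusted p = 0.40), both past the thresholds for p and fold.

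Etv4 (chr11:101769742-101785310), an ETS factor of the PEA3 group, measured 2254, 792, 1389 and 1383 normalized counts in untreated M/D-driven tumors. In NAM-treated tumors it measured 175, 3954, 4281 and 97.1. Treated tumors 2 and 3 thus lay above, and treated tumors 1 and 4 below, every untreated tumor. The log2 difference of -0.89 (SE 1.26, 95% interval -3.77 to 1.99, adjusted p = 0.89 by limma) changed sign with the method and the tumors used: it was 0.52 by edgeR and 0.55 by DESeq2 on recovered reads, 0.08 without treated tumor 4 and -0.20 without treated tumor 1.

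Etv5 (chr16:22381310-22439621), the closest relative of Etv4 in this list, measured 3359, 2376, 1078 and 1094 normalized counts in untreated M/D-driven tumors and 2148, 2327, 7628 and 598 in NAM-treated ones. Treated tumor 3 was the highest and treated tumor 4 the lowest of the 8. The log2 difference was 0.32 (SE 0.74, adjusted p = 0.94 by limma), and -0.28 without treated tumor 3.

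Fosl1 (chr19:5447545-5455945) encodes FRA-1, an AP-1 subunit that ERK signaling both induces and stabilizes. Its normalized counts were 220.2, 51.1, 578 and 765 in untreated M/D-driven tumors and 15.3, 974, 12.9 and 24.1 in NAM-treated ones. 3 of the 4 treated tumors lay below all untreated tumors, and treated tumor 2 lay above all of them. On the log2 scale the groups differed by -2.46 (SE 1.46, 95% interval -5.80 to 0.87, adjusted p = 0.75 by limma). Without treated tumor 2 it was -3.91 (SE 0.93, unadjusted p = 0.0035, adjusted p = 0.30 by limma), past the thresholds for p and fold.

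Phlda1 (chr10:111506286-111508649), a gene of the pleckstrin homology-like domain family whose transcript follows growth factor signaling, measured 16537, 11295, 13744 and 7901 normalized counts in untreated M/D-driven tumors. It measured 799.6, 15713, 12461 and 7216 in NAM-treated ones. Treated tumor 1, the library with B cell precursor transcripts, was far below the other 7. The log2 difference of -1.04 (SE 0.86, adjusted p = 0.80 by limma) was -0.09 (SE 0.34) without that tumor. Treated tumor 1 had a low epithelial marker level beside low Phlda1, Etv4 and Fosl1 values. Etv4 (97.1) and Fosl1 (24.1) were also low in treated tumor 4, and Fosl1 (12.9) in treated tumor 3. Summed epithelial markers were at 382657 in treated tumor 4 and 286530 in treated tumor 3. The part of epithelial markers in these results was not tested.

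The 9 genes were more dispersed among NAM-treated than among untreated M/D-driven tumors. The SD of the log2 values was larger with NAM for 9 of the 9 genes, against 75.5% of all genes tested. The median SD went from 0.46 in untreated to 1.12 in treated tumors for the 9 genes, and from 0.45 to 0.74 for all genes. Etv4 had an SD of 0.62 in untreated and 2.89 in treated tumors, and Spry4 of 0.08 and 0.89. Without treated tumor 1, 9 of 9 genes against 61.2% of all genes had the larger SD with NAM, and the medians for treated tumors were 1.14 and 0.53. Without treated tumor 4, this was so for 8 of 9 genes against 70.9%, and the medians were 0.76 and 0.70. In AT3 tumors the SD was larger with NAM for 6 of the 9 genes, against 37.9% of all genes, and the median SD was 0.17 in untreated and 0.30 in treated tumors for the 9 genes, and 0.43 and 0.35 for all genes. No test of the difference in spread was made for the list, whose genes share the same tumors.

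**Figure D2:**
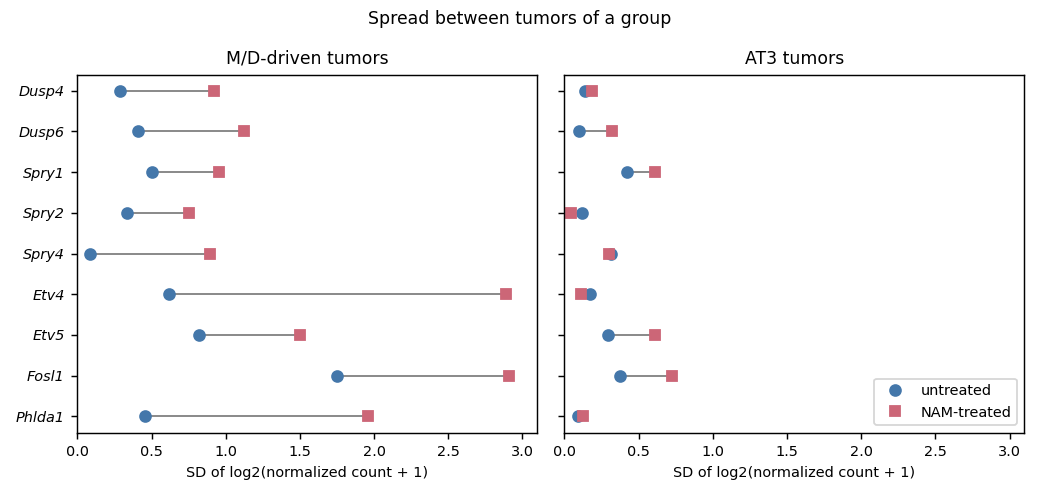
SD of log2(normalized count + 1) of each of the 9 ERK output genes, in untreated (circles) and NAM-treated tumors (squares) of either model. In M/D-driven tumors the square lies to the right of the circle for all 9 genes, and in AT3 tumors for 6 of 9 (75.5% and 37.9% of all genes).

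The tumors at the extremes were shared between genes. NAM-treated M/D-driven tumor 4 was the lowest of the 8 for 7 of the 9 genes, all except Fosl1 and Phlda1. NAM-treated tumor 3 was the highest for 4 genes (Dusp4, Spry4, Etv4 and Etv5), and NAM-treated tumor 2 for 3 genes (Dusp6, Spry2 and Fosl1). The mean log2 value of the 9 genes lay between 10.35 and 10.74 in the 4 untreated tumors. In NAM-treated tumors 1 to 4 it was 9.38, 11.46, 10.93 and 8.93, so 2 treated tumors lay above and 2 below the untreated range. Skeletal muscle markers were at their highest in treated tumor 4, the tumor with the lowest mean, but also high in treated tumor 2, the tumor with the highest mean (summed levels of 258744 and 81958). Their part in these values was not tested.

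In AT3 tumors, 1 of the 9 genes passed the thresholds with NAM, Etv5, which was higher. Among the 19281 genes tested, 12.2% were called higher and 10.9% lower, so 1 of 9 is a share near that of all genes, and 0.00519% of genes passed an adjusted p of 0.05. Etv5 measured 1840.5, 2639 and 1872 normalized counts in untreated and 2694, 5917 and 5199 in NAM-treated AT3 tumors. The groups did not overlap, although treated tumor 1 was only just above untreated tumor 2. The difference on the log2 scale was 1.06 (SE 0.32, 95% interval 0.34 to 1.78, unadjusted p = 0.0087, adjusted p = 0.17 by limma), a fold of 2.09, with an exact permutation p of 0.10, the smallest that 3 against 3 allows. It stayed past the thresholds on leaving out each AT3 tumor in turn (0.84 to 1.41), but not when all 14 tumors shared 1 estimate of the spread (unadjusted p = 0.16 by limma).

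The difference of a gene between NAM-treated and untreated AT3 tumors followed the length of its transcript (Spearman's rho of 0.59 across the 16429 genes with a length, -0.04 in M/D-driven tumors). With the trend in length and GC content removed, the log2 difference of Etv5 was 0.72 (SE 0.22, unadjusted p = 0.0099, adjusted p = 0.15 by limma). The promoter of Etv5 (RefSeq, GRCm38.p6, minus strand, chr16:22439521-22439820), the one member called in this model, is shown with no capitals, as it held none of the 4 motifs.
Etv5: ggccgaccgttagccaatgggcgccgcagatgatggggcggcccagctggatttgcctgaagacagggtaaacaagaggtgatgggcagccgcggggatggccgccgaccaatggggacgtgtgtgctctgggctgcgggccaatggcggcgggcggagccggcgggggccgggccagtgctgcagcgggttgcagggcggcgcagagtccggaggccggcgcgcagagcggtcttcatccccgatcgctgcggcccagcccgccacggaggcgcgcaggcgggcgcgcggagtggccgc

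None of the other 8 members passed the thresholds in AT3 tumors. Dusp4 measured 2804, 3041 and 3382 normalized counts in untreated and 3195, 4137 and 3576 in treated tumors (log2 difference 0.24, SE 0.20). Dusp6 measured 3433, 3080.5 and 3513 against 3448, 5386 and 4382 (0.38, SE 0.22). In both phosphatase genes the groups overlapped through treated tumor 1, which lay within the untreated range.

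Spry1 measured 87.0, 127 and 70.8 in untreated and 85.1, 155 and 195 in NAM-treated AT3 tumors, a log2 difference of 0.57 (SE 0.40), which was 0.91 without treated tumor 1 (unadjusted p = 0.033, adjusted p = 0.11 by limma) and then past the thresholds. Spry2 measured 3216, 3726 and 3693 against 3134, 3240.0 and 3049, a log2 difference of -0.17 (SE 0.19). Spry4 measured 826, 1186 and 807 against 826, 1074 and 1245, a log2 difference of 0.16 (SE 0.26). The signs of the differences of Spry2 and Spry4 turned with the length and GC trend removed (0.17 and -0.34).

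Etv4 measured 2468, 3000.3 and 2404 in untreated and 2719, 2693 and 3086 in NAM-treated AT3 tumors (log2 difference 0.11, SE 0.20, 95% interval -0.34 to 0.57). Fosl1 measured 73.9, 105 and 62.7 against 36.5, 63.0 and 102 (-0.34, SE 0.44). Phlda1 measured 34836, 34399 and 38614 against 28984, 30726 and 34394 (-0.20, SE 0.20). Phlda1 was the 1 gene of 9 that did not overlap in the lower direction, by a margin of a few counts between untreated tumor 2 and treated tumor 3, and Etv5 the 1 gene of 9 in the higher direction. Among all genes, 11.7% did not overlap in the higher and 11% in the lower direction. The median log2 difference of the 9 genes was 0.16, against -0.05 for all genes tested. The locus over Dusp5 measured 229, 331 and 387 against 309, 472 and 385 (0.31, SE 0.29). The endothelial markers Pecam1, Cdh5, Kdr and Tek were called higher and Cldn5 lower with NAM in AT3 tumors. Among all genes, 12.2% were called higher and 10.9% lower. The summed level of all 6 endothelial markers was 4259.5 to 5001 in untreated and 5415 to 7632 in treated tumors, and the part of these and of the epithelial markers in the values of Etv5 was not tested.

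**Figure D3:**
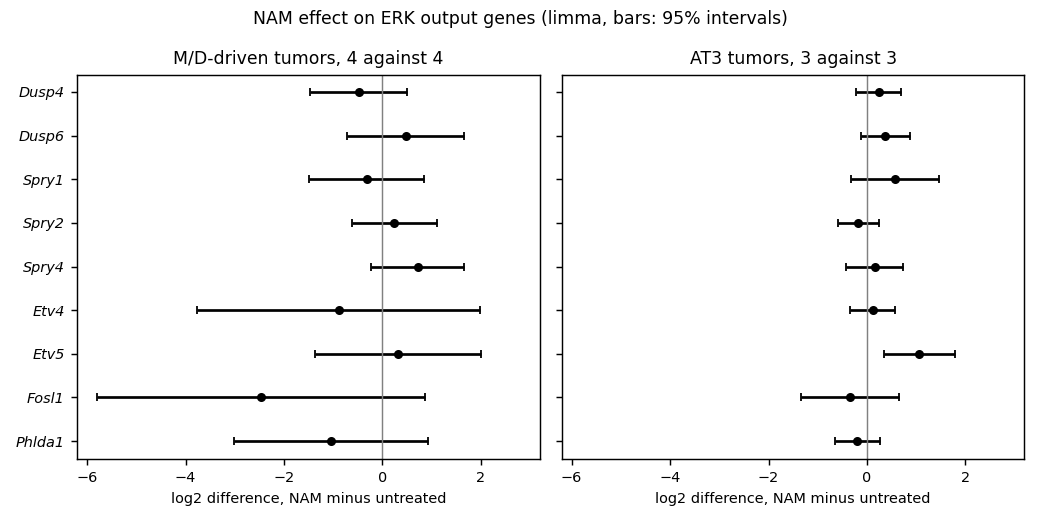
Log2 difference between NAM-treated and untreated tumors for the 9 ERK output genes (points, with 95% intervals from limma), in M/D-driven and AT3 tumors. In M/D-driven tumors all 9 intervals include 0, and in AT3 tumors only that of Etv5 (0.34 to 1.78) does not.

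The NAM effects in both models were then compared by an interaction term across all 14 tumors. None of the 9 genes passed the thresholds, and none had an adjusted p under 0.05, whereas 6.97% of the 22710 genes tested were called with the effect higher in M/D-driven tumors and 7.9% with it lower, with 0% at an adjusted p of 0.05. Without any adjustment, 3387 of all genes had a p of at most 0.05, and DESeq2 gave 822 genes at an adjusted p of at most 0.05. Of the called genes 46.8% were higher, and 34.3% with TMM scaling, which moved the median of all genes from 0.04 to -0.08. For Etv5 the difference between the effects was -0.74 (SE 0.94, 95% interval -2.76 to 1.28, adjusted p = 0.72 by limma). For Fosl1 it was -2.12 (SE 1.81, adjusted p = 0.58), and -3.56 without M/D NAM-treated tumor 2 (unadjusted p = 0.0075 by limma), past the thresholds. For Spry4 it was 0.56 (SE 0.54, adjusted p = 0.63), past the thresholds at 0.94 without M/D NAM-treated tumor 4 (unadjusted p = 0.035 by limma) and at 1.17 with the length and GC trend removed (unadjusted p = 0.047 by limma). The intervals are wide, so a different response of the models to NAM was neither shown nor bounded closely for these genes.

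The untreated tumors of the models were compared on scaling factors common to all 14 tumors. Spry2 and Phlda1 were lower in M/D-driven than in AT3 tumors, at a threshold that 24.4% of the 22687 genes tested passed in the lower direction, 27.1% in the higher direction and 44.3% by an adjusted p of 0.05. On the common scale Spry2 measured 1538, 2239, 1266 and 1853 in the M/D-driven tumors 1 to 4 and 3842, 4273 and 4410.2 in the AT3 tumors 1 to 3, a log2 difference of -1.31 (SE 0.34, adjusted p = 0.0079 by limma). Phlda1 measured 14703, 10216, 12103 and 7074 against 41617, 39445 and 46113, a log2 difference of -1.99 (SE 0.74, adjusted p = 0.042 by limma). No tumor of one model reached the range of the other for either gene, and the exact permutation p was 0.029, the smallest that 4 against 3 allows. The difference of Phlda1 kept an adjusted p under 0.05 on leaving out each of the NAM-treated M/D-driven tumors, but not on leaving out any other tumor.

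Spry4 and Etv4 also did not overlap, with M/D-driven tumors lower, which made 4 of 9 genes against 24.7% of all genes (27.3% in the higher direction, where none of the 9 genes stood). Spry4 measured 708, 668, 653 and 744 in M/D-driven and 987, 1359.8 and 964 in AT3 tumors on the common scale (log2 difference -0.65, SE 0.39, adjusted p = 0.18 by limma). Etv4 measured 2004, 716, 1223 and 1239 against 2948, 3440.4 and 2870.5 (-1.34, SE 1.08, adjusted p = 0.33). Both were called, beside Spry2 and Phlda1, when the fit held the untreated tumors alone and thus took its spread from them (adjusted p = 0.025 for Spry4 and 0.0080 for Etv4 by limma).

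For Dusp4 and Dusp6 no difference was detected between the untreated tumors of the models, with log2 differences of 0.04 (SE 0.39, 95% interval -0.79 to 0.87) and -0.07 (SE 0.47, 95% interval -1.09 to 0.95). For Spry1 and Fosl1 the log2 difference was above 0 (0.75, SE 0.51, and 1.35, SE 1.27), and for Etv5 it was -0.65 (SE 0.67), all with overlapping groups. The locus over Dusp5 was higher in M/D-driven tumors, at 629.9 to 2269.7 (n = 4) against 274 to 462 (n = 3) on the common scale (log2 difference 1.53, SE 0.51, adjusted p = 0.026 by limma). The median log2 difference of the 9 genes was -0.65, against 0.08 for all genes tested. With the scaling of the authors the median of all genes was 0.49, the share of called genes that were higher was 68.3% in place of 52.6%, and 1 gene was called higher (Spry1, 1.14) and 1 lower (Spry2, -0.90), Phlda1 being at -1.59 (unadjusted p = 0.050, adjusted p = 0.095 by limma). Markers of other cell types differed with the models, beside 27.1% of all genes called higher and 24.4% lower. In untreated M/D-driven tumors 6 of 6 adipocyte markers were called higher than in untreated AT3 tumors (median log2 difference of 6.30). So were 4 of 10 epithelial, 4 of 8 fibroblast, 4 of 6 endothelial and 5 of 8 leukocyte markers, with 1 leukocyte marker lower. Their part in the values of Spry2 and Phlda1 was not tested, and model, site of growth and experiment cannot be told apart in this comparison.

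**Figure D4:**
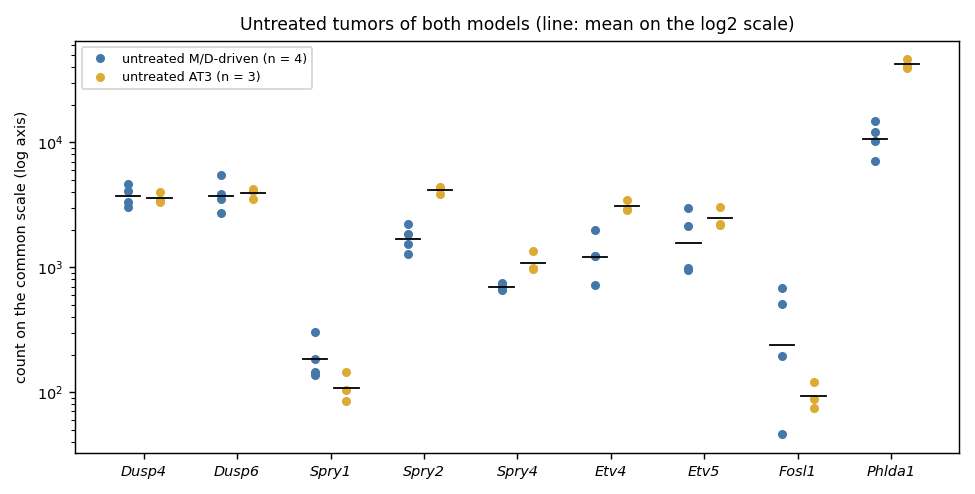
Counts on the common scale (log axis) of the 9 ERK output genes in the untreated tumors, 4 M/D-driven (blue) and 3 AT3 (yellow), with lines at the mean on the log2 scale. The groups are apart for Spry2, Spry4, Etv4 and Phlda1, with AT3 tumors higher, and counts of different genes are not comparable as they are not divided by length.

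Within M/D-driven tumors, 33 of the 36 pairs of the 9 genes had a Pearson's r above 0 across the 8 tumors (log2 values, median r of 0.53). The closest pair was Dusp4 and Etv4, with an r of 0.91 (exact permutation p = 0.0045, adjusted p = 0.16 over 36 pairs) and a Spearman's rho of 0.81 (exact permutation p = 0.022, adjusted p = 0.33). On leaving out the 2 tumors farthest from the median of Dusp4 the r was 0.42. Leaving out the most extreme values also narrows the range, so with few tumors left this cannot show whether the relation rests on them. In all, 3 pairs had an exact p of at most 0.05 for r, and none after adjustment. The 3 pairs with an r below 0 all held Fosl1 or Phlda1, and the lowest r was -0.28, between Etv5 and Fosl1. Without NAM-treated tumor 1, the single library of its experiment, 34 of 36 pairs had an r above 0 (median 0.59), again with none past adjustment. Within AT3 tumors, 22 of 36 pairs had an r above 0 across the 6 tumors (median 0.31), from -0.50 for Dusp6 and Spry2 to 0.93 for Spry1 and Spry4, and none passed adjustment.

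**Figure D5:**
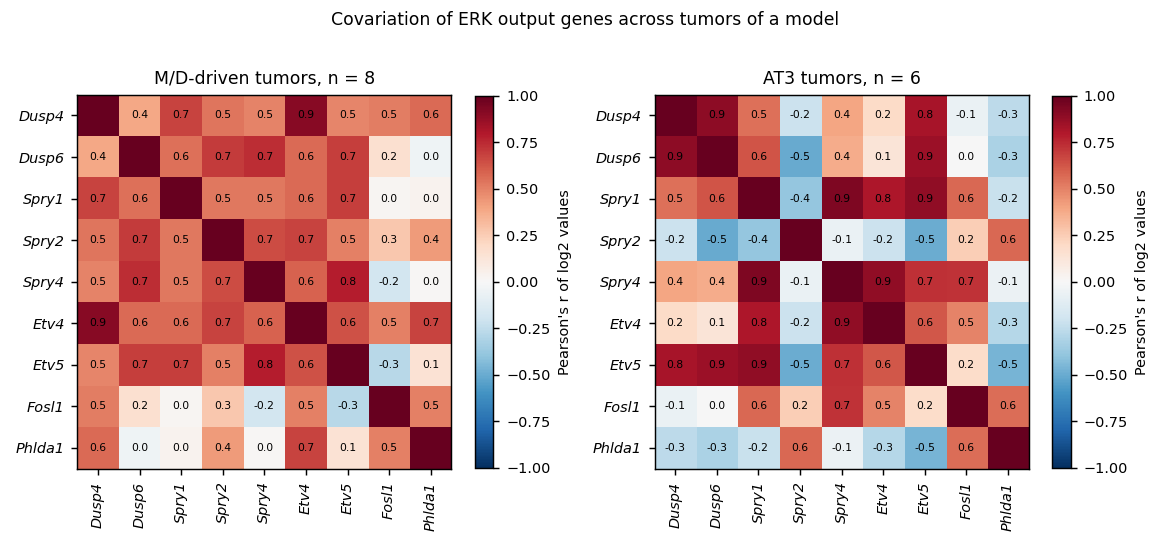
Pearson's r of log2 values for each pair of the 9 ERK output genes, across the 8 M/D-driven tumors and across the 6 AT3 tumors (red above 0, blue below 0). In M/D-driven tumors 33 of the 36 pairs are above 0 and in AT3 tumors 22 of 36, where most pairs below 0 hold Spry2 or Phlda1.

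Across all 14 tumors, with each group centred on its own mean, Etv4 followed the mean of the other members most closely (Pearson's r of 0.93), then Dusp4 (0.85), Spry2 (0.81) and Spry4 (0.80), with Fosl1 the loosest (0.33). The mean of the 9 members varied most in NAM-treated M/D-driven tumors, at 9.38, 11.46, 10.93 and 8.93 in tumors 1 to 4. It was 10.35 to 10.74 in untreated M/D-driven, 10.49 to 10.77 in untreated AT3 and 10.44 to 11.01 in NAM-treated AT3 tumors. These r values thus rest largely on treated M/D-driven tumors 2 and 3 against 1 and 4. Of 14847 other genes with a single symbol, the 5 that followed the mean of the 9 members most closely were Dbndd1 (r of 0.93), Pbx3 (0.93), Gzme (0.92), Sema3b (0.92) and Tex40 (0.92). They are given as a description, with no p, since all genes share the same libraries. Sema3b, a secreted semaphorin, measured 315, 16522, 12039 and 181 normalized counts in NAM-treated M/D-driven tumors 1 to 4 and 1281 to 20289 in untreated ones. Pbx3, a homeodomain factor, measured 163, 626, 443 and 153 in the same treated tumors and 316 to 626 in untreated ones. Dbndd1 and Gzme were listed at 0 in treated tumors 1 and 4, and Gzme belongs to a cluster of near-identical granzyme genes whose reads may be split between copies. Dbndd1 measured at most 29.2 normalized counts in any of the 14 tumors, and Tex40 measured 0 to 21.3 in AT3 tumors, so these values rest on few reads. Without treated tumor 1 the r values of the 5 genes were 0.90 to 0.92.

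Transcripts of the cascade upstream of these genes were compared in the same way. Of 24 genes of the ERK cascade, from the adaptors to the kinases, 8 were called higher and 0 lower with NAM in AT3 tumors (median log2 difference of 0.44, against -0.05 for all genes, of which 12.2% were called higher and 10.9% lower). These calls are at an unadjusted p, and 0 of the 24 genes had an adjusted p of at most 0.05 by limma. With NAM, 0 were called higher and 0 lower in M/D-driven tumors (median -0.17, against 0.01 for all genes). There 4 of the 24 lay lower without overlap and 0 higher, against 2% and 2.43% of all genes. By the interaction term 6 were called with a lower effect in M/D-driven than in AT3 tumors and 0 with a higher one, against 7.9% and 6.97% of all genes. None of these had an adjusted p of at most 0.05 by limma. Ptpn11, the phosphatase SHP2 that couples receptors to Ras, measured 1087, 1463 and 1078 normalized counts in untreated and 1603, 3954 and 4743 in treated AT3 tumors (log2 difference 1.38, SE 0.38, adjusted p = 0.17 by limma). Sos1, a Ras exchange factor, measured 404, 567 and 481 against 625, 1337 and 1525 (1.18, SE 0.35, adjusted p = 0.17). Rps6ka3, the ERK-activated kinase RSK2, measured 617, 842 and 724 against 1022, 1594 and 2111 (1.06, SE 0.29, adjusted p = 0.17). In each of the 3 genes treated tumor 1 was the lowest of the treated tumors yet above all untreated ones. Long transcripts were higher as a whole in this comparison, and the part of length in these counts was not tested gene by gene.

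Among 20 further feedback regulators and targets of ERK, 19 were in the table. In AT3 tumors 4 of 18 tested were higher and 1 lower with NAM, against 0 of 19 higher and 1 lower in M/D-driven tumors (medians of 0.22 and -0.54). Among all genes, 12.2% were called higher and 10.9% lower in AT3 tumors, and 3.03% and 3.19% in M/D-driven tumors, and the 1 gene lower in either model is a count near those shares. Il17rd, a membrane antagonist of FGF signaling, measured 7.25, 13.2 and 1.63 normalized counts in untreated and 25.5, 59.3 and 74.3 in treated AT3 tumors (log2 difference 2.87, SE 0.75, adjusted p = 0.17 by limma). In these untreated tumors 1 read stood for 1.45, 1.02 and 0.81 normalized counts, so the Il17rd values there rest on few reads. The Sprouty-related inhibitors Spred1 (0.82, SE 0.25) and Spred2 (1.25, SE 0.41) were also higher. The part of transcript length in the differences of Il17rd, Spred1 and Spred2 was not tested. Areg, which encodes the EGF receptor ligand amphiregulin, was lower, at 183, 90.4 and 243 in untreated and 97.2, 71.5 and 82.6 in treated AT3 tumors (-0.93, SE 0.40, adjusted p = 0.20), with 1 untreated tumor in the treated range. In M/D-driven tumors Areg ranged from 431 to 6367 in untreated and from 5.09 to 11445 in treated tumors, and was at 5.09, 1070.4, 11445 and 37.7 in treated tumors 1 to 4, thus low in the tumors 1 and 4 in which Etv4 was low. The gene called lower in M/D-driven tumors was Epha4, a receptor tyrosine kinase, at 1761 to 2817 in untreated and 31.4, 759.9, 655 and 1506 in treated tumors (-2.63, SE 1.06, adjusted p = 0.73 by limma).

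Of 18 immediate-early genes, which growth factors switch on within minutes, 1 was higher and 1 lower with NAM in M/D-driven tumors (median -0.52), near the 3.03% and 3.19% of all genes called, so that the genes are given as named by the rule and not as a result on the list. Dusp2, a nuclear MAP kinase phosphatase of activated lymphocytes, measured 529, 233, 447 and 433 normalized counts in untreated and 4582, 4909, 528 and 975 in treated M/D-driven tumors (log2 difference 2.23, SE 0.74, adjusted p = 0.73 by limma). Klf4, a zinc finger factor of epithelial cells, measured 13614, 2377, 19074 and 29245 against 888, 10187, 788 and 1421 (-2.70, SE 1.00, adjusted p = 0.73). In both genes 1 tumor made the groups overlap. In AT3 tumors 0 were higher and 1 lower (median 0.22), below the 12.2% and 10.9% of all genes, the lower one being Atf3, a stress-induced factor (-0.79, SE 0.35, adjusted p = 0.21 by limma).

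Of the 3 phosphatases that act on p38 and JNK rather than on ERK, Dusp16 was called in both models and in opposite directions. It measured 1709.7, 2201, 1785 and 2204 normalized counts in untreated and 577, 765, 1269 and 916 in treated M/D-driven tumors (log2 difference -1.21, SE 0.27, adjusted p = 0.73 by limma). In AT3 tumors it measured 288, 388 and 394 in untreated and 457, 847 and 997 in treated tumors (1.04, SE 0.32, adjusted p = 0.17). The groups did not overlap in either model, and the interaction term was -2.25 (SE 0.44, unadjusted p = 0.00018, adjusted p = 0.18 by limma). Among all genes, 3.19% were called lower and 2% lay lower without overlap in M/D-driven tumors. In AT3 tumors 12.2% were called higher and 11.7% lay higher without overlap. By the interaction term 7.9% were called lower. Dusp16 is given as named by the rule and not as a result on the list. The part of transcript length in its AT3 difference was not tested.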

How the data were processed

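Bulk polyadenylated RNA of 14 tumors was sequenced by the authors, mapped with STAR 2.4.0 on mm10 and counted on the constitutive regions of Mouse FAST DB genes. The deposited values are a normalized signal per gene, counts divided by DESeq2 size factors within each model. Division by the value of 1 read gave whole reads (tolerance 0.01) for 100% of values in every tumor, and these recovered reads served for edgeR 4.0.16 and DESeq2 1.42.0 as alternatives. Depth was 40936868 to 84178009 reads per tumor.

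Groups were taken from the sample titles. limma 3.58.1 (R 4.3.3) with a mean-variance trend was fitted to log2(normalized count + 1) for every gene whose mean reached 10 in 1 group or more. Calls needed a fold of 1.5 or more together with an unadjusted p up to 0.05. Benjamini-Hochberg adjustment ran over all genes tested. Fold changes are on the log2(value + 1) scale. Untreated tumors of both models were compared after rescaling by median-of-ratios factors over all 14 tumors. Scripts were tested on simulated data.

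All members were described in every tumor. Pathway genes were named by a rule of up to 3 per list, direction and NAM comparison by smallest p among those called, and 5 similar genes by the highest r. The members and lists were chosen with earlier results of these data known. Promoters came from RefSeq GRCm38.p6 and were found for Dusp5, Dusp6, Spry1, Spry2 and Etv5. Alternatives were the pseudocount, filters, scaling, test, a length and GC correction, a replicate block, a shared fit and each tumor left out.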

Additional observations from a re-analysis of the deposited data

Results flagged for a closer look

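Fosl1 in NAM-treated M/D-driven tumor 2, at 974 normalized counts, stood apart from the other 3 treated tumors, which measured 15.3, 12.9 and 24.1. Its gap to the next value divided by the range of the group was 0.86 on the log2 scale, above Dixon's 95% critical value for 4 samples. The rule was run for each of the 9 genes in the untreated and in the NAM-treated M/D-driven tumors, and it marked only this value. Chance alone marks about 1 in 20 such groups, so a single mark among them is not read as a result.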

How the results depend on the processing

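Depth limits only the lowest genes, whereas 3 or 4 tumors per group limit the precision of every value given here. Libraries that stand apart are single tumors, and the cause of each change below was not tested. In M/D-driven tumors, DESeq2 called 1 ERK output gene with NAM, and 0 to 2 were called on leaving out each tumor, 1 without NAM-treated tumor 2 (Fosl1) and 2 without NAM-treated tumor 4 (Dusp6 and Spry4). Over all genes, 1350 were past the thresholds, against 2180 with no filter, 859 with a minimum group mean of 50, 2119 by DESeq2, 2225 with all 14 tumors in 1 fit and 784 to 2712 on leaving out each tumor (784 without untreated tumor 4, 856 without untreated tumor 1, 2712 without NAM-treated tumor 2). The adjusted p was at most 0.05 for 1 gene, against 176 by DESeq2, 0 with a pseudocount of 5, no filter, edgeR, the length and GC trend removed or the replicate block, and 0 to 9 on leaving out each tumor (9 without untreated tumor 2, 3 without NAM-treated tumor 2). Of called genes, 48.7% were higher by limma, 60.6% by edgeR and 62.7% by DESeq2. The difference of Etv4 turned to 0.52 by edgeR and 0.55 by DESeq2. On leaving out each tumor it ranged from -1.74 to 0.079 for Etv4, -0.58 to 0.14 for Spry1, -0.070 to 0.45 for Spry2 and -0.28 to 0.94 for Etv5.

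In AT3 tumors, 1 ERK output gene was past the thresholds, 0 with all 14 tumors in 1 fit, and 1 to 2 on leaving out each tumor (2 without NAM-treated tumor 1). At an adjusted p of at most 0.05 there was 1 (Etv5) by DESeq2 and with the replicate block, and 0 to 1 on leaving out each tumor (1 without untreated tumor 2 or NAM-treated tumor 1). All-gene calls were 4458, against 2603 with the length and GC trend removed and 1618 to 6765 on leaving out each tumor (1618 when NAM-treated tumor 3 was dropped, 1861 when tumor 2 of that group was, 2267 without untreated tumor 1, 2637 without untreated tumor 3, 6765 without untreated tumor 2). Genes at an adjusted p of at most 0.05 numbered 1, against 2120 by DESeq2, 1296 with the replicate block, 0 by edgeR, with the trend removed or with all 14 tumors in 1 fit, and 0 to 2520 on leaving out each tumor (2520 without untreated tumor 2, 2498 without NAM-treated tumor 1). With the trend removed, Spry2 turned to 0.17 and Spry4 to -0.34. Fosl1 ranged from -0.70 to 0.027 on leaving out each tumor.

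For the interaction, 1 ERK output gene was called with the length and GC trend removed, and 0 to 1 on leaving out each tumor (Fosl1 without M/D NAM-treated tumor 2, Spry4 without M/D NAM-treated tumor 4). Calls over all genes numbered 3377, against 2039 with the trend removed and 1838 to 4574 on leaving out each tumor (1838 without AT3 NAM-treated tumor 3, 2018 without AT3 NAM-treated tumor 2), and 822 genes had an adjusted p of at most 0.05 by DESeq2 (0 to 535 by limma on leaving out each tumor, 535 without AT3 NAM-treated tumor 1). Dusp6 turned to -0.031 with TMM scaling, and Etv4 to 0.40 by edgeR and 0.44 by DESeq2. On leaving out each tumor, Dusp6 ranged from -0.27 to 0.62 and Phlda1 from -1.32 to 0.11.

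Between untreated tumors of the models, 4 ERK output genes were called with the trend removed, with the replicate block and with the untreated tumors only, against 2. At an adjusted p of at most 0.05 there were 4 with untreated tumors only, 1 with no filter, TMM scaling or the scaling of the authors, and 1 to 2 on leaving out each tumor. Dusp4 turned to -0.47 with the trend removed and -0.0037 with the replicate block, and ranged from -0.065 to 0.14 on leaving out each tumor. Dusp6 turned to 0.10 with TMM scaling (median of all genes 0.24), 0.046 by edgeR and 0.33 with the scaling of the authors, and ranged from -0.25 to 0.087.

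Replicate numbers are shared between groups, and the labels do not state that they pair the tumors. Deviations of same-numbered tumors correlated at -0.44 to 0.11 in M/D-driven and -0.16 to 0.26 in AT3 tumors. So few pairs cannot decide whether the tumors are paired, and the replicate block is given here only.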
